A study of Mus musculus with 30 samples.

Results

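Regulatory T cells (Treg) were compared with effector T cells (Teff) sorted from the pancreas of mice given a control antibody. The members were chosen by title and array number: 3 Treg arrays and 5 Teff arrays, 8 of the 30 arrays of the series. All mice were NOD mice, a strain that develops autoimmune diabetes, and all carried the BDC2.5 T cell receptor transgene, which makes most of their CD4+ T cells recognise an antigen of the pancreatic islet. The mice had received rat IgG, the control for an antibody to the costimulatory receptor ICOS used elsewhere in the series. Treg cells were sorted as CD4+CD25+CD69- and Teff cells as CD4+, low or negative for CD25, with or without CD69. The surface protein CD25 therefore separated the groups by the sort itself. CD69 was restricted in the Treg gate alone. RNA was taken up in Trizol and amplified over 2 rounds before hybridisation. The labels of these 8 arrays give no age; a second record of the Treg 3 array gives 26 days. Whether each array stands for its own animals is not stated in the labels, and a p-value here therefore reflects only array-to-array spread, which may be technical.

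Treg cells restrain other T cells. They need the transcription factor Foxp3 and interleukin-2 signalling through CD25 and the STAT5 factor, and they act through the inhibitory receptor CTLA-4, through interleukin-10 and by breaking down extracellular ATP. In the infiltrated pancreas of NOD mice, Treg and Teff cells meet the same islet antigen and the same inflammatory cytokines. Foxp3, Cd69 and Ly6c1 were not measured here, since no probe set named 1 of these genes alone.

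Expression is given as log2 of the deposited intensity, and a difference is Treg minus Teff. The array medians lay between 32.5 and 34.5 intensity units. Probe sets for bacterial and yeast transcripts, which have no target in mouse RNA, spanned 2.70 to 5.59 on the log2 scale (19 probe sets). Of the named genes, Icos, Il2rb, Cd44, Ikzf2, Gzmk, Gzma, Entpd1, Lgals3, Icam1, Ccr7, Ccl3, Aurka, Ttk, Racgap1, Birc5, Pdk1, Atf6, Casp1, Casp4, Blk, Tmem176a and Fgl2 had both group means under 5.59. Another 28 named genes had only their Teff mean under 5.59, among them Socs2, Gzmb, Klrg1, Il10, Itgae, Prdm1, Ahr and Il1r2, and 7 only their Treg mean, among them Pou2af1, Nsg2 and Dusp6. Their differences are taken against a level not above the blanks and are no measure of the fold. The log2 ratio of the 3' to the 5' actin control probe sets, which is higher where RNA is shorter or amplified less completely, was 3.69, 4.53 and 3.02 on the Treg arrays. It was 2.83, 2.41, 3.11, 2.54 and 2.38 on the Teff arrays (means 3.75 and 2.65, exact permutation test, two-sided as 2 times the smaller tail, p = 0.0714 and 0.143 after adjustment over 2 ratios). The Treg arrays thus stood mostly above the Teff arrays in this ratio, and its part in the results below was not tested beyond the fits that hold it as a covariate. In sorted cells measured in bulk, fewer cells that express a gene and less RNA of it per cell cannot be told apart.

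Genes of CD4+ T cells lay above the blanks in both groups. Cd3e, a chain of the T cell receptor complex, had 7.92, 9.05 and 9.04 on the Treg arrays, against 8.45, 8.35, 8.73, 8.73 and 8.71 on the Teff arrays. Cd4 had 6.72, 6.94 and 6.88 on the Treg arrays, against 6.86, 6.83, 7.51, 7.32 and 7.28 on the Teff arrays. The 2 groups overlapped for both genes (differences 0.07 and -0.31, adjusted p = 0.907 and 0.318). Il2ra, which encodes CD25, had 5.58, 6.16 and 6.80 on the Treg arrays, against 4.33, 4.13, 4.09, 4.28 and 4.06 on the Teff arrays; it encodes a marker of the sort and is no independent finding (difference 2.00, SE 0.22). Ikzf2, a transcription factor of many Treg cells, had 4.54, 4.70 and 4.49 on the Treg arrays, against 4.43, 4.58, 4.28, 4.38 and 4.39 on the Teff arrays, with overlapping groups (difference 0.17, adjusted p = 0.367). Cd8a, of CD8 T cells, differed by 0.23 (adjusted p = 0.311), and the receptor chain Il2rb by 0.21 (adjusted p = 0.234). The adhesion receptor Cd44 differed by 0.48 (adjusted p = 0.0769), although its groups did not overlap, as held for 8.85% of all genes in that direction.

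Across the 8 arrays, 831 of 12422 probe sets passed the test (6.69%), 488 of them higher in Treg (3.93%) and 343 lower (2.76%). This was limma's moderated test with a Benjamini-Hochberg adjusted p under 0.05. With 1 probe set for each gene, the one with the highest mean, 637 of 8251 genes passed (7.72%). Of these, 371 were higher in Treg (4.5% of all genes) and 266 lower (3.22%). Groups without overlap were more common, with 730 genes higher in Treg (8.85%) and 508 lower (6.16%). A lack of overlap alone is therefore no sign that a gene passed. More than 2-fold differences numbered 91 higher and 62 lower genes. Of the 637, 286 passed whichever of the 8 arrays was left out. Another 227 probe sets belonged to 175 of the called genes; 172 of them had the same sign, 42 also passed with that sign and 0 passed with the opposite sign. Without Teff 5 the number of probe sets called was 450, and without Treg 2 it was 471. The lower probe sets alone numbered 161 without Teff 5, 141 without Treg 2 and 541 without Treg 3, and the higher ones 289 without Teff 5. With the actin ratio as a covariate 86 probe sets passed (0.692%), 75 higher and 11 lower, and all 637 genes had the same sign in that fit. It used the same 8 arrays, so the kept sign is a description of the called genes. Of the 637 genes 58 passed there, 52 higher and 6 lower, and most list counts given below were smaller in it. The list medians moved both ways in that fit. For mitosis and cyclins the median was 0.81 against 0.67 in the main fit, and for translation factors -0.07 against -0.22. The ratio was mostly higher on the Treg arrays, so that fit cannot fully part the ratio from the group. The list counts are to be read against the shares of all genes, 4.5% higher and 3.22% lower, and some lie near them. The lists were chosen with earlier results of these data known, so a count above these shares is a description and no test.

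The array numbers fell into 3 runs, each with 1 Treg array and at least 1 Teff array: Treg 1 with Teff 1 and 2 (run A), Treg 2 with Teff 3 (run B), and Treg 3 with Teff 4 and 5 (run C). The difference within a run had the same sign in all 3 runs for 634 of the 637 genes and for 37.5% of all genes; the test used the same arrays, so this is a description of the called genes. For the higher genes the median difference was 0.70 in run A, 0.73 in run B and 0.77 in run C. For the lower genes the medians were -0.69, -1.16 and -0.52. The lower genes had their largest difference in run B in 203 of 266 cases, or 76.3%, against 57.6% of all genes. Treg 2, the Treg array of run B, also had the highest actin ratio, 4.53. Teff 3, the only Teff array of run B, had the highest ratio among the Teff arrays, 3.11. The part of these ratios, and of a run with a single Teff array, in these differences was not tested.

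**Figure D1:**
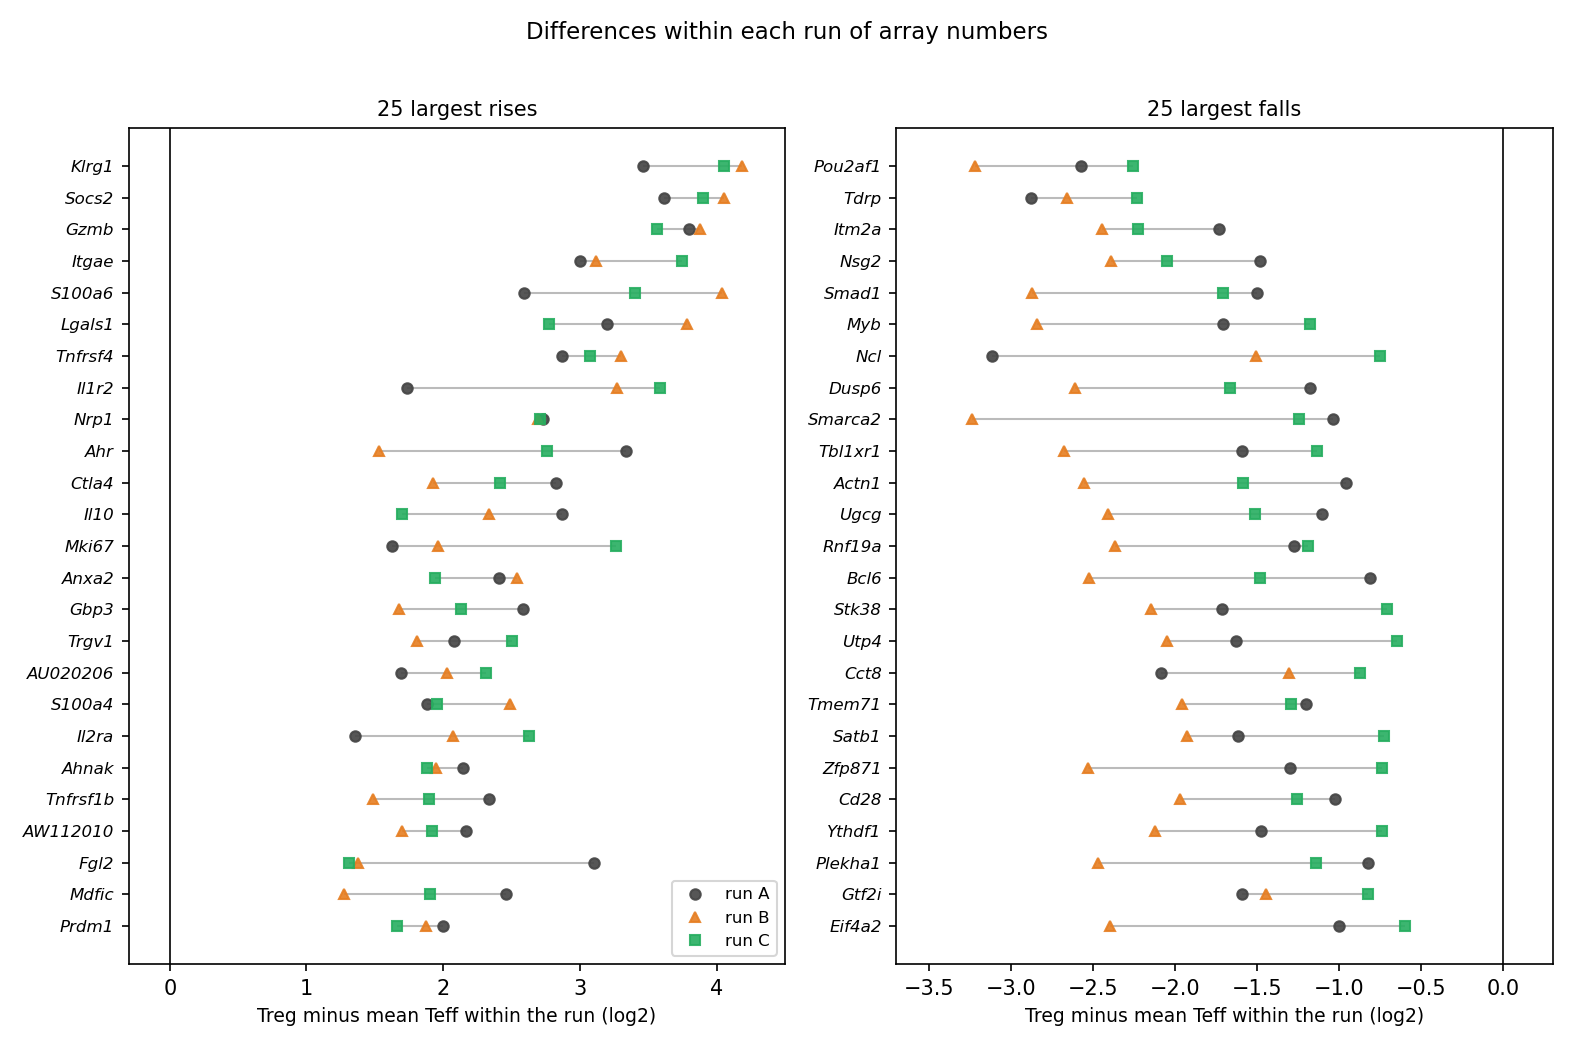
Log2 difference between the Treg array and the mean of the Teff arrays within each run of array numbers, for the 25 genes with the largest rise (left) and the 25 with the largest fall (right) among called genes whose groups did not overlap. All points lie on the same side of 0 for each gene, and among the falls the run B triangles are mostly farthest from 0.

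Cytokine signalling gave some of the largest differences. Interleukin-2 and related cytokines act through STAT5, whose feedback inhibitors include Socs2 and Cish. Socs2 had 9.08, 9.21 and 9.11 on the Treg arrays, against 5.33, 5.60, 5.15, 5.23 and 5.18 on the Teff arrays. The Treg arrays lay within a narrow band far above every Teff array, and the Teff mean lay under the highest blank (difference 3.83, SE 0.11). Cish had 7.79, 8.20 and 7.90 on the Treg arrays, against 6.56, 6.53, 6.21, 6.65 and 6.63 on the Teff arrays, again without overlap (difference 1.44, SE 0.13, adjusted p = 0.000168). Pim1, a survival kinase that cytokine signals induce, rose by 1.26 (SE 0.14, adjusted p = 0.000725), and its other probe set differed by 0.11. The related kinase Pim2 fell by 0.94 (adjusted p = 0.000859; other probe set -0.22). Of 18 measured JAK, STAT and SOCS genes 3 rose and 2 fell. The 2 falls, Jak2 by 0.55 and Pias2 by 0.42, did not pass with run as a block, and 0 fell without Teff 1, Teff 3, Teff 5 or Treg 2.

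Among 23 other cytokine receptors, 4 rose and 2 fell. Il1r2, a decoy receptor that binds interleukin-1 without signalling, had 6.54, 8.24 and 8.38 on the Treg arrays, against 5.05, 4.55, 4.96, 4.89 and 4.69 on the Teff arrays. Treg 1 stood below Treg 2 and 3 but above every Teff array (difference 2.88, SE 0.35, adjusted p = 0.00129; other probe set 1.38). The interleukin-18 receptor chain Il18r1 had 7.54, 6.42 and 7.33 on the Treg arrays, against 5.78, 5.91, 5.97, 6.05 and 6.10 on the Teff arrays, a difference of 1.14 (adjusted p = 0.0115). Ifngr1, a chain of the interferon-gamma receptor, rose by 0.82 (adjusted p = 0.0037). Il6st, the signalling chain shared by interleukin-6 family receptors, fell by 1.15 (adjusted p = 0.00687; other probe set 0.08), with levels of 5.56 to 6.33 in Treg cells and 6.57 to 7.24 in Teff cells. Il12rb1, of the interleukin-12 receptor, rose by 0.69, and Il6ra, of the interleukin-6 receptor, fell by 0.61 (adjusted p = 0.0442). The count of falls was 1 without Teff 2, without Teff 5 and without each of Treg 1, 2 and 3. Holding the actin ratio as a covariate, 1 of the 23 rose and 0 fell.

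Tumour necrosis factor receptors on T cells give costimulatory signals. Of 13 measured members of the superfamily, 4 rose and 0 fell (median difference 0.26, against 0.025 over all genes). Tnfrsf4, which encodes OX40, had 9.99, 10.21 and 10.10 on the Treg arrays, against 7.25, 6.99, 6.91, 7.31 and 6.75 on the Teff arrays, 8.34-fold apart (difference 3.06, SE 0.13, adjusted p = 1.48e-06). Tnfrsf1b, the second receptor for tumour necrosis factor, had 8.87, 8.31 and 8.56 on the Treg arrays, against 6.48, 6.59, 6.82, 6.73 and 6.59 on the Teff arrays (difference 1.94, SE 0.13). Tnfrsf18, which encodes GITR, had 9.58, 9.55 and 9.35 on the Treg arrays, against 7.96, 7.91, 7.77, 8.15 and 7.81 on the Teff arrays (difference 1.57, SE 0.11). None of these groups overlapped, and the same 3 genes passed in every fit that left out 1 array. The ligand Lta rose by 1.00 (adjusted p = 0.00496), but its other probe set differed by -0.38. In the family of CD28, Ctla4 had 8.83, 7.94 and 8.21 on the Treg arrays, against 6.02, 5.99, 6.02, 5.92 and 5.68 on the Teff arrays (difference 2.40, SE 0.18, adjusted p = 4.79e-05). Cd28, the activating receptor that competes with CTLA-4 for the same ligands, moved the other way, with 7.36, 6.80 and 7.30 on the Treg arrays, against 8.51, 8.27, 8.77, 8.28 and 8.85 on the Teff arrays (difference -1.38, SE 0.18, adjusted p = 0.00147). Icos had 5.31, 4.51 and 4.53 on the Treg arrays, against 4.15, 4.41, 4.11, 4.16 and 4.06 on the Teff arrays; the groups did not overlap, with Treg 1 highest, and the difference of 0.61 did not pass (adjusted p = 0.0705).

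The promoters of 2 of these receptor genes are shown because they hold the spaced palindrome TTCNNNGAA, the core of a STAT site, in capitals. They come from RefSeq on GRCm38.p6 and cover the 250 bases before the start of transcription, 5′ to 3′ on the gene's strand.
Il1r2 (chr1:40085843-40086092, plus strand): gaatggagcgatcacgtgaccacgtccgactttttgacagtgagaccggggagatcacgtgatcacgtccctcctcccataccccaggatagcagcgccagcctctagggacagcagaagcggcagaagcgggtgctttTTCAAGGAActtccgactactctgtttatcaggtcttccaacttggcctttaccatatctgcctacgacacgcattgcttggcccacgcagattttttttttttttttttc
Tnfrsf1b (chr4:145246871-145247120, minus strand): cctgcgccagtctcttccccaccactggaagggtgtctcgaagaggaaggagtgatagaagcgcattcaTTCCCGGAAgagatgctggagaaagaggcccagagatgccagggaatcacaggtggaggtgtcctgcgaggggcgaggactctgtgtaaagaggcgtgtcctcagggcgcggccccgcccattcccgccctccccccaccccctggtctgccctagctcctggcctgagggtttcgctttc
Among the 25 largest rises, 18 had a promoter in the table and 4 of these held TTCNNNGAA on either strand (22.2%), namely Il1r2, Tnfrsf1b, Fgl2 and Mdfic. Among the 25 largest falls it stood in 3 of 21 (14.3%). Over all measured genes with a promoter it stood in 7.39%. The motifs searched, on both strands, numbered 9: the CCAAT box, the cell cycle element TTTGAA, the STAT core with 3 and with 4 open bases in its middle, the AP-1 site TGANTCA, the E box CACGTG, the cAMP response element TGACGTCA, a kappa B site and the E2F site TTTCGCGC. A gene was counted where any of its windows held the motif. The STAT core was not alone in its share of the largest rises. The AP-1 site also stood in 4 of the 18 (22.2%), in 1 of the 21 falls (4.76%) and in 6.71% of all measured genes with a promoter. CCAAT stood in 4 of the 18 too, below its 40% of all measured genes with a promoter. A match describes the letters only and says nothing of binding.

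**Figure D2:**
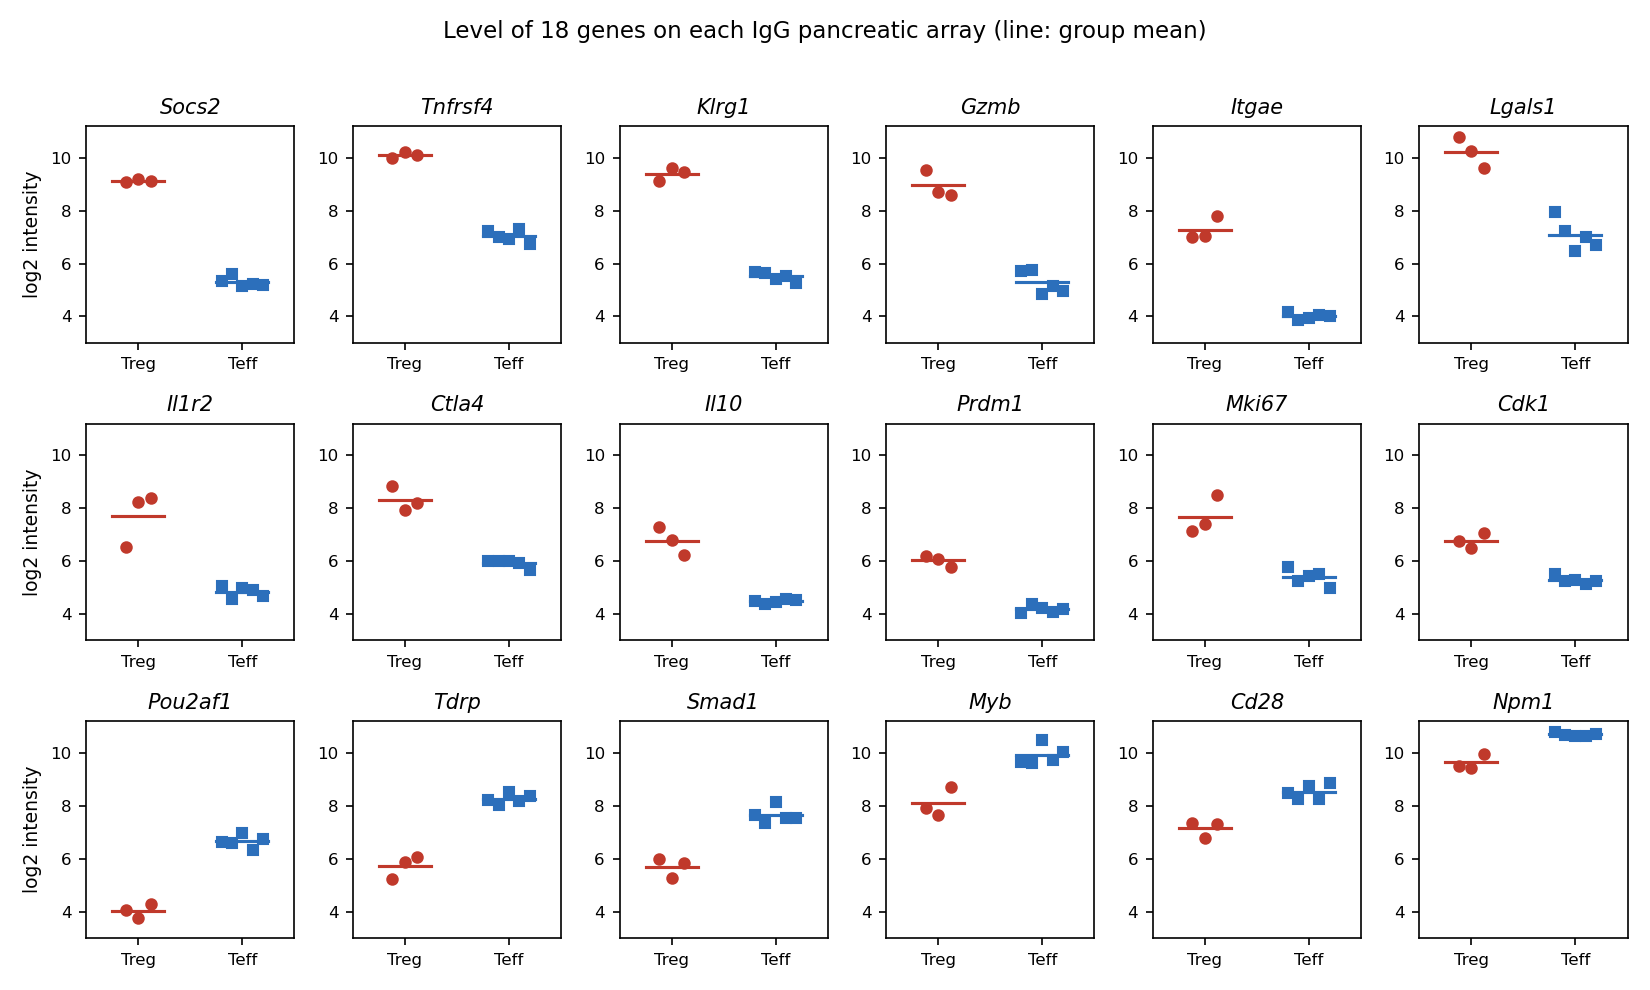
Log2 intensity of 18 genes on each IgG pancreatic array, with Treg arrays as circles on the left of each panel and Teff arrays as squares on the right; lines are group means. In every panel the Treg and Teff points do not overlap, with Treg higher in the first 12 panels and Teff higher in the last 6.

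Of 14 measured suppressive effectors, 6 rose and 0 fell (median difference 0.52); Il2ra, the gene of the sort marker, is 1 of the 6, and 5 rose without it. Besides Ctla4 and Il2ra, the cytokine Il10 had 7.30, 6.78 and 6.23 on the Treg arrays, against 4.49, 4.38, 4.44, 4.55 and 4.52 on the Teff arrays. All Treg arrays lay far above the tight Teff values (difference 2.30, SE 0.19, adjusted p = 0.000117). Entpd1, which encodes the ATP-degrading enzyme CD39, had 4.92, 4.75 and 5.10 on the Treg arrays, against 3.46, 3.59, 3.43, 3.39 and 3.51 on the Teff arrays (difference 1.45, SE 0.10, adjusted p = 3.07e-05). Fgl2, a secreted suppressive protein, had 6.24, 4.19 and 4.22 on the Treg arrays, against 2.96, 3.30, 2.82, 3.01 and 2.82 on the Teff arrays, with Treg 1 far above the rest (difference 1.90, adjusted p = 0.0195; other probe set 0.14). Ebi3, a subunit of interleukin-35, rose by 0.73 (adjusted p = 0.0216; other probe set 0.06). Neither Fgl2 nor Ebi3 passed without Teff 5. The cytokine of effector cells, Ifng, had 7.17, 5.86 and 5.54 on the Treg arrays, against 6.09, 5.49, 4.81, 5.19 and 4.66 on the Teff arrays; the groups overlapped (difference 0.95, adjusted p = 0.206). Of 20 cytokines of T cells, Il10 and Csf1, a growth factor of macrophages, rose, Csf1 by 0.55, and 0 fell.

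Several genes of cytotoxic granules rose in Treg cells. Of 17 measured, 8 rose and 0 fell (median difference 0.25). Gzmb, granzyme B, had 9.54, 8.72 and 8.61 on the Treg arrays, against 5.72, 5.76, 4.84, 5.15 and 4.94 on the Teff arrays, without overlap and with the Teff mean under the highest blank (difference 3.67, SE 0.27, adjusted p = 4.4e-05). Serpinb6a, a serine protease inhibitor, had 6.48 ± 0.15 in Treg cells and 5.27 ± 0.10 in Teff cells (SD, n = 3 and 5; difference 1.21). Granzyme K (Gzmk) rose by 1.15, cystatin F (Cst7), an inhibitor of granule proteases, by 1.15, and the cathepsin Ctsw by 1.14. Granzyme A (Gzma) rose by 0.48, with levels of 4.91 to 5.14 in Treg cells and 4.37 to 4.65 in Teff cells. With the actin ratio as a covariate 4 of the 17 rose, and 3 rose in the joint fit with the anti-ICOS arrays. Among 16 killer lectin and NK receptors, only Klrg1, an inhibitory receptor of highly differentiated T cells, rose and 0 fell. The count of rises was near the 4.5% of all genes that rose. The count of falls was 1 with run as a block, with quantile normalisation and with dim probe sets left out. It was also 1 in the trended and robust fit, with the IgG Treg array of the later set added and without Treg 1. Klrg1 had 9.13, 9.61 and 9.45 on the Treg arrays, against 5.69, 5.65, 5.42, 5.53 and 5.26 on the Teff arrays, without overlap and with the Teff mean under the highest blank (difference 3.89, SE 0.13).

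S100 proteins, annexins and galectins bind calcium, membranes or sugars and are abundant in activated and memory T cells. Of 21 measured, 10 rose and 0 fell, with a median difference of 0.36. S100a6 had 10.21, 9.78 and 9.56 on the Treg arrays, against 7.42, 7.82, 5.75, 6.40 and 5.91 on the Teff arrays. The Teff arrays were spread widely, with Teff 1 and 2 highest, and still lay below every Treg array (difference 3.19, SE 0.44, adjusted p = 0.00244). Lgals1, galectin-1, had 10.79, 10.25 and 9.61 on the Treg arrays, against 7.96, 7.23, 6.46, 6.99 and 6.69 on the Teff arrays (difference 3.15, SE 0.34, adjusted p = 0.000609). Anxa2 had 9.31, 8.58 and 8.47 on the Treg arrays, against 6.77, 7.03, 6.04, 6.74 and 6.32 on the Teff arrays (difference 2.21, SE 0.24). Teff 1 and 2 were again highest or nearly so among the Teff arrays. S100a10, the partner of annexin A2, rose by 1.83 (other probe set 0.38), S100a4 by 2.01 and Lgals3 by 0.83. Anxa1 rose by 1.71 (other probe sets 1.41 and 0.34) and S100a13 by 1.34 (other probe sets 0.08 to 1.20). The 10 called members all passed with run as a block. In the fit with the actin ratio as a covariate 1 of the 21 passed, and the median difference was 0.25.

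Of 42 measured genes of the actin cytoskeleton, 3 rose and 3 fell, where 4.5% of all genes rose and 3.22% fell. With the actin ratio as a covariate 0 passed, and 1 rose and 1 fell in the joint fit with the anti-ICOS arrays. Dstn, which severs actin filaments, had 8.61, 8.48 and 8.08 on the Treg arrays, against 7.10, 6.55, 6.81, 7.07 and 6.61 on the Teff arrays (difference 1.56, adjusted p = 0.000556). Crip1, a small LIM protein, had 10.32 ± 0.19 in Treg cells and 8.80 ± 0.45 in Teff cells (SD, n = 3 and 5; difference 1.52), and the tropomyosin Tpm4 rose by 0.73. Actn1, an actin crosslinker, fell, with 8.12, 7.26 and 7.93 on the Treg arrays, against 9.09, 9.06, 9.82, 9.44 and 9.59 on the Teff arrays (difference -1.63, adjusted p = 0.00218). One of its other probe sets differed by -1.59 and another by -0.01. The count of rises was 6 without Treg 3, and that of falls was 1 without Teff 1, 2, 3 or 5 and without Treg 1 or 2. Outside the lists, the very large scaffold protein Ahnak had 10.87, 10.05 and 10.09 on the Treg arrays, against 8.53, 8.92, 8.11, 8.38 and 8.03 on the Teff arrays (difference 1.94, SE 0.23, adjusted p = 0.00119).

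The adhesion receptors that passed the test were all higher in Treg cells. Of 28 measured integrins and adhesion receptors, 8 rose and 0 fell. Itgae, the integrin chain CD103 that binds E-cadherin on epithelium, had 7.01, 7.05 and 7.78 on the Treg arrays, against 4.17, 3.85, 3.93, 4.06 and 4.00 on the Teff arrays (difference 3.28, SE 0.17, adjusted p = 4.6e-06; other probe set 2.16). Nrp1, a coreceptor carried by many thymus-derived Treg cells, had 8.03 ± 0.29 in Treg cells and 5.38 ± 0.27 in Teff cells (SD, n = 3 and 5; difference 2.65, SE 0.17, adjusted p = 2.31e-05; other probe set 1.62). Both genes showed a gap of more than 1 log2 unit between the groups. Cd2 and Cd48, a receptor and ligand pair of T cell contacts, rose by 1.36 and 1.18. Icam1, the ligand of the integrin LFA-1, rose by 1.11, and Fut7, which makes selectin ligands, by 0.59. The 3 rises left with the actin ratio as a covariate were Itgae, Nrp1 and Icam1.

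Among 15 chemokine receptors 4 rose and 2 fell. Cxcr3, a receptor for interferon-induced chemokines, had 8.48, 8.45 and 8.61 on the Treg arrays, against 6.96, 6.85, 6.69, 7.03 and 6.75 on the Teff arrays (difference 1.66, SE 0.10, adjusted p = 1.56e-05). Ccr2, a receptor for inflammatory chemokines, had 7.05, 6.69 and 6.46 on the Treg arrays, against 5.17, 5.31, 4.60, 4.82 and 5.11 on the Teff arrays (difference 1.73, adjusted p = 0.000489). Ccr6 had 7.73 ± 0.06 in Treg cells and 6.90 ± 0.12 in Teff cells (SD, n = 3 and 5; difference 0.83). Ccr7, which guides naive T cells into lymph nodes, fell by 0.77 (adjusted p = 0.00513), with levels of 4.52 to 4.69 in Treg cells and 5.07 to 5.64 in Teff cells. The count of falls was 1 without Teff 1, 3 or 5 and without any 1 of the Treg arrays, Ccr7 passing each time. Of 18 chemokines, only Ccl3 passed, a count near the 4.5% of all genes that rose (difference 0.66, adjusted p = 0.0129).

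Transcription factors moved in both directions. Of 23 factors that set helper lineages, 6 rose and 2 fell. Ahr, the aryl hydrocarbon receptor, had 7.30, 5.56 and 6.32 on the Treg arrays, against 4.10, 3.83, 4.03, 3.53 and 3.59 on the Teff arrays. Treg 2 was the lowest Treg array and still above every Teff array (difference 2.58, SE 0.32, adjusted p = 0.00129). Prdm1, which encodes Blimp-1, had 6.21, 6.09 and 5.79 on the Treg arrays, against 4.05, 4.38, 4.22, 4.06 and 4.20 on the Teff arrays (difference 1.85, SE 0.12, adjusted p = 2.15e-05). Bcl6, a factor that Blimp-1 opposes, had 6.04, 5.18 and 5.88 on the Treg arrays, against 7.07, 6.62, 7.71, 7.42 and 7.30 on the Teff arrays (difference -1.53, adjusted p = 0.00567). The 2 factors thus lay on opposite sides, and neither overlapped between the groups. Hopx rose by 1.46, Gata3 by 0.71 and Batf by 0.66. Eomes, a factor of memory and cytotoxic cells, fell by 1.18 (adjusted p = 0.00259; other probe set -2.30).

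Of 27 factors of naive and memory T cells, 0 rose and 9 fell (median difference -0.36). Myb, which keeps progenitor-like cells, had 7.94, 7.66 and 8.72 on the Treg arrays, against 9.68, 9.62, 10.51, 9.74 and 10.05 on the Teff arrays (difference -1.81, SE 0.26, adjusted p = 0.00263; other probe set -0.16). Satb1, a chromatin organiser of T cells, had 7.44, 7.37 and 8.28 on the Treg arrays, against 9.14, 8.97, 9.30, 8.91 and 9.10 on the Teff arrays (difference -1.39, adjusted p = 0.00244). In both genes Treg 3 was the highest Treg array. Sox4 fell by 0.45 (other probe set -0.68). Without Treg 2, 5 of the 27 fell, with the actin ratio as a covariate 0, and in the joint fit with the anti-ICOS arrays 4. Among 34 chromatin and transcription cofactors, 1 rose and 3 fell, where 4.5% of all genes rose and 3.22% fell. The coactivator Pou2af1 had 4.04, 3.77 and 4.28 on the Treg arrays, against 6.65, 6.59, 6.99, 6.31 and 6.76 on the Teff arrays (difference -2.63, adjusted p = 1.56e-05; other probe set -0.25). Smarca2, an ATPase of the BAF remodelling complex, fell by 1.72, and Tbl1xr1, a corepressor subunit, by 1.67; for both, the within-run difference was largest in run B (-1.04, -3.24 and -1.24 for Smarca2 in runs A, B and C). The count of falls in this list was 5 without Treg 3.

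Many genes of cell division rose in Treg cells. Of 33 measured genes of mitosis and cyclins, 20 rose and 1 fell (median difference 0.67). Mki67, a protein of dividing cells, had 7.15, 7.39 and 8.52 on the Treg arrays, against 5.79, 5.26, 5.42, 5.53 and 4.98 on the Teff arrays (difference 2.29, SE 0.28, adjusted p = 0.0014; other probe set 0.17). Cdk1, the kinase that drives entry into mitosis, had 6.75, 6.48 and 7.05 on the Treg arrays, against 5.52, 5.26, 5.27, 5.13 and 5.24 on the Teff arrays (difference 1.47, SE 0.13, adjusted p = 0.000186). Ccnb2, a cyclin partner of Cdk1, had 8.59, 7.92 and 8.55 on the Treg arrays, against 7.31, 7.02, 6.97, 7.01 and 6.71 on the Teff arrays (difference 1.35, SE 0.17). In all 3 genes Teff 1 was the highest Teff array and lay below every Treg array.

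Other rises covered successive steps of mitosis. Cks2, a subunit of cyclin-dependent kinases, rose by 1.34 and cyclin A2 (Ccna2) by 0.71. The mitotic kinases Aurka, Ttk and Aurkb rose by 0.84, 0.80 and 0.67. The spindle proteins Prc1, Kif20a and Kif22 rose by 1.08, 1.00 and 0.88, and the microtubule regulator Stmn1 by 0.89 (other probe set -0.05). Racgap1, needed for cytokinesis, rose by 0.75, Cdc20, an activator of the anaphase-promoting complex, by 0.66, and Birc5 by 0.59. Treg 3 was highest for many of them, and run B gave the smallest difference for Racgap1 (1.00, 0.27 and 0.94 in runs A, B and C). Smc4, a condensin subunit, fell by 1.02 (adjusted p = 0.00259). Between 15 and 23 members rose when 1 array was left out. With the actin ratio as a covariate 7 rose, with the IgG Treg array of the later set added 11 rose, and in the joint fit with the anti-ICOS arrays 3 rose.

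Of 35 measured DNA replication and repair genes, 8 rose and 0 fell. With the actin ratio as a covariate and in the joint fit with the anti-ICOS arrays 0 passed. The median difference of the list was 0.22 in the main fit and 0.46 with the actin ratio as a covariate. The count of rises was 12 without Treg 1, 0 without Teff 5, 1 without Treg 2, 2 without Teff 2, 3 without Teff 4, 4 without Teff 1 or Treg 3, and 5 without Teff 3. Top2a, the topoisomerase of dividing cells, had 6.29, 5.84 and 7.26 on the Treg arrays, against 5.24, 4.76, 5.58, 4.99 and 4.66 on the Teff arrays (difference 1.42, adjusted p = 0.0201), and did not pass without Teff 2 or without Teff 5. Rrm2, a subunit of ribonucleotide reductase, belongs to another list, nucleotide synthesis, of which 3 of 24 measured genes rose and 0 fell. With the actin ratio as a covariate 0 of those 24 passed. Rrm2 passed in every fit that left out 1 array. It had 6.90, 7.04 and 7.71 on the Treg arrays, against 5.81, 5.94, 6.22, 5.66 and 5.11 on the Teff arrays (difference 1.47, adjusted p = 0.00665). Treg 3 was the highest Treg array for both genes.

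The promoters of Ccnb2 and Cdk1 are shown because mitotic genes share short elements near their start. Capitals mark CCAAT boxes (ATTGG on the opposite strand) and TTTGAA, the core of a cell cycle homology region (TTCAAA on the opposite strand); the 2 motifs do not overlap. Both are the 250 bases before the start, from RefSeq on GRCm38.p6, 5′ to 3′ on the gene's strand.
Ccnb2 (chr9:70421555-70421804, minus strand): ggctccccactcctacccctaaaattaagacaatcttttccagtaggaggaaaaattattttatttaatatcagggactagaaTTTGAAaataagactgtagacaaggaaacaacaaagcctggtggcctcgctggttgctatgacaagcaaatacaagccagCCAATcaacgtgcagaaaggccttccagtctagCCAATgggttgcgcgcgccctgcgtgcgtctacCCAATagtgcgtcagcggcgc
Cdk1 (chr10:69352913-69353162, minus strand): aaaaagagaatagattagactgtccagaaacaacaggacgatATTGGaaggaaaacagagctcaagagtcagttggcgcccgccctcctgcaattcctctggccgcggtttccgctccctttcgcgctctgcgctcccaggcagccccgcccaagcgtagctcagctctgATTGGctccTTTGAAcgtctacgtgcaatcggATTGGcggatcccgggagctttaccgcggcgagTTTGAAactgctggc
Of the 20 mitotic genes that rose, 15 had a promoter in the table. CCAAT stood in 13 of them (86.7%), against 40% of all measured genes with a promoter. TTTGAA stood in 7 of them (46.7%), against 13.8% of all measured genes with a promoter. Over all 32851 promoter windows of the table the shares were 33.8% and 16%. These shares are descriptions of sequence in genes chosen from a list of mitotic genes.

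**Figure D3:**
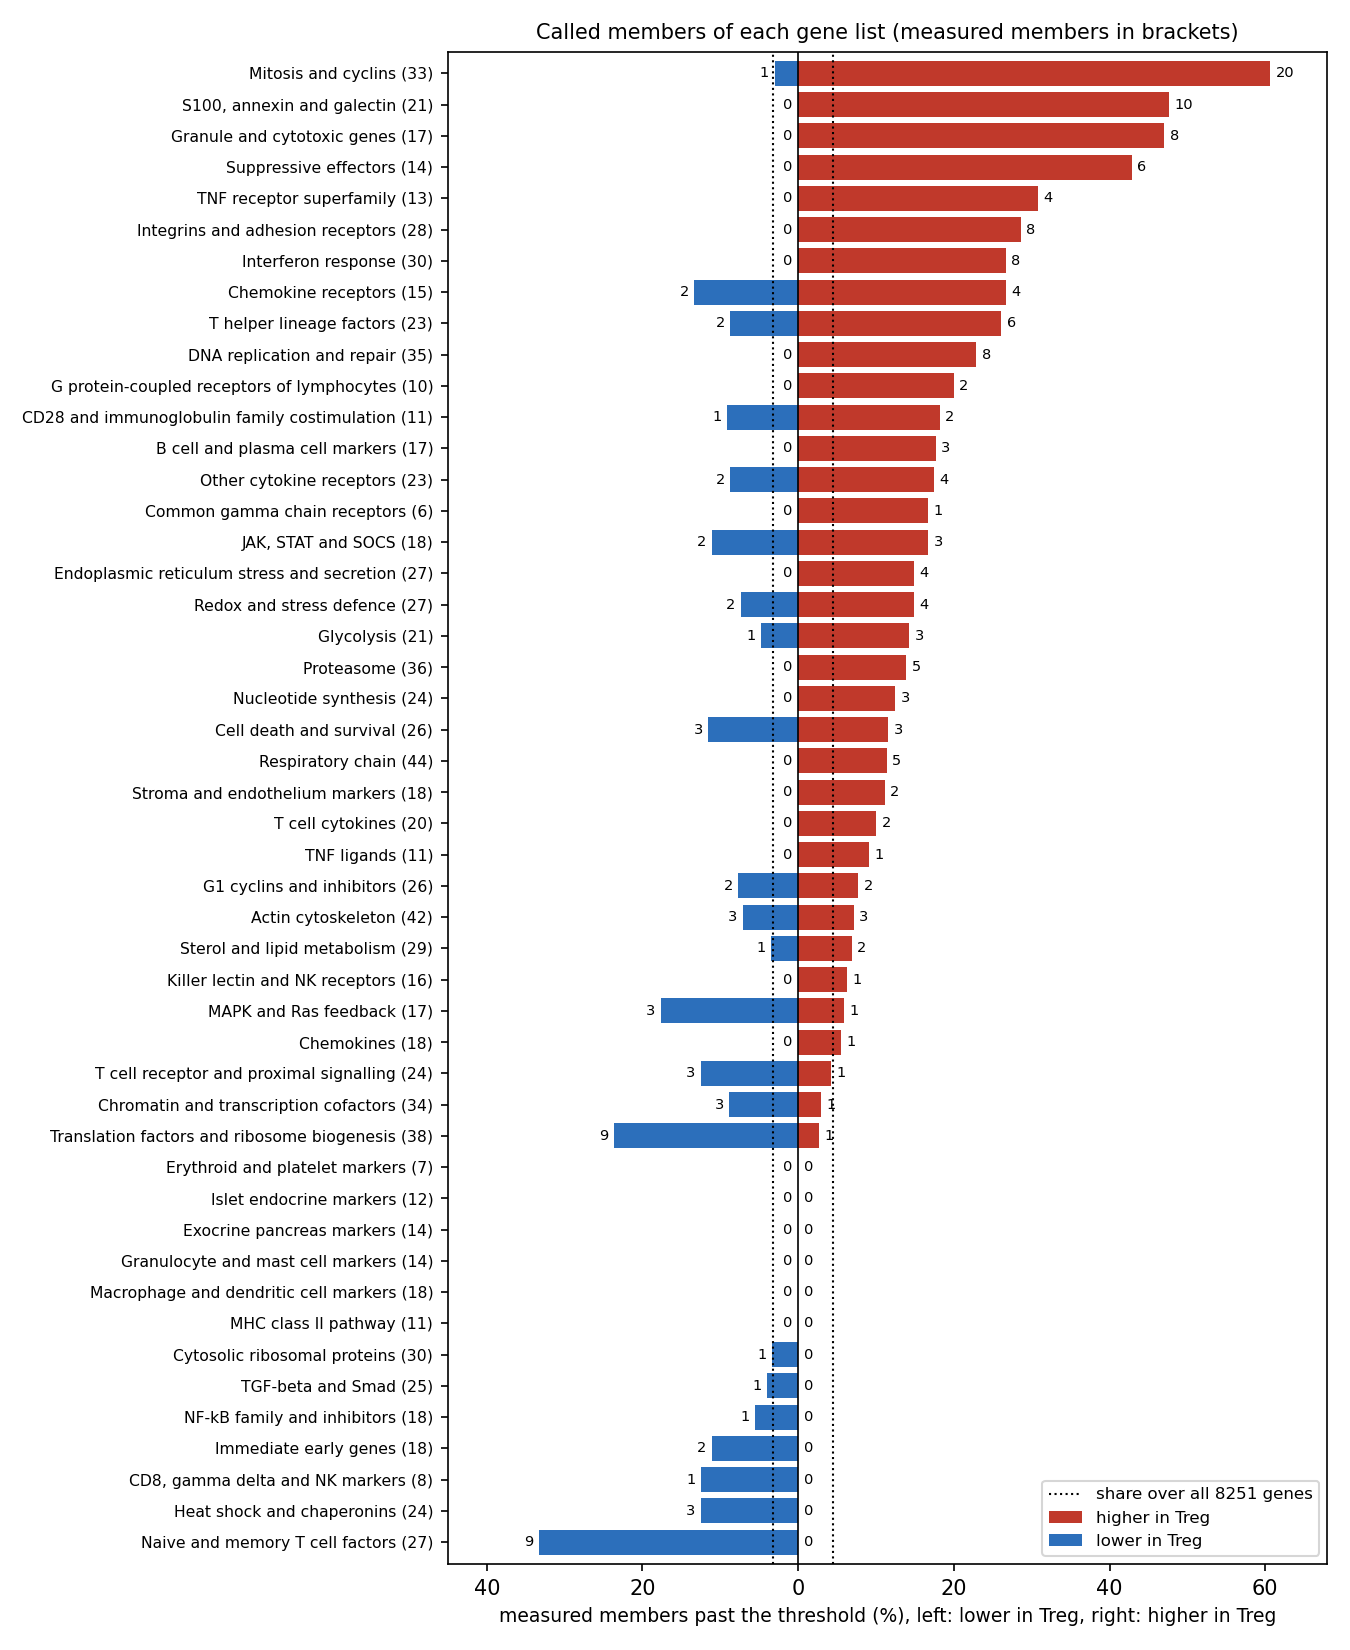
Share of the measured members of each gene list that passed the test, with bars to the right for members higher in Treg and to the left for members lower in Treg; numbers at the bars are counts of genes and dotted lines mark the shares over all 8251 genes (4.5% higher, 3.22% lower). Mitosis and cyclins reach furthest to the right (20 of 33) and naive and memory T cell factors furthest to the left (9 of 27). The lists were chosen with earlier results of these data known.

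Some genes of protein synthesis fell in Treg cells. Of 38 measured translation factors and genes of ribosome biogenesis, 1 rose and 9 fell (median difference -0.22). Npm1, a nucleolar chaperone, had 9.51, 9.44 and 9.98 on the Treg arrays, against 10.82, 10.70, 10.66, 10.65 and 10.71 on the Teff arrays (difference -1.06, SE 0.12, adjusted p = 0.000884). Fbl, the methyltransferase that modifies ribosomal RNA, had 7.18, 7.46 and 8.13 on the Treg arrays, against 8.70, 8.64, 8.56, 9.13 and 8.73 on the Teff arrays (difference -1.16, adjusted p = 0.00782). Treg 3 was nearest to the Teff arrays for both. Eif4a2, an RNA helicase of translation initiation, fell by 1.27 and the initiation factor Eif2s3x by 0.55. Ncl, nucleolin, had 6.87, 8.44 and 9.38 on the Treg arrays, against 9.75, 10.23, 9.95, 10.22 and 10.03 on the Teff arrays (difference -1.80, adjusted p = 0.0332) and passed in 3 of the 8 fits that left out 1 array. Without Teff 5, 5 of the 38 fell, and without Treg 2, 4 fell; with the actin ratio as a covariate 0 fell. The proteins of the ribosome itself gave 1 fall among 30, near the 3.22% of all genes that fell (median difference -0.08). In the list of 24 heat shock proteins and chaperonins 3 fell, among them the chaperonin subunit Cct8 by 1.43 (adjusted p = 0.01); 1 fell without Treg 2 and 5 fell without Treg 3. Utp4, of ribosomal RNA processing, fell by 1.43 and was in no list.

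**Figure D4:**
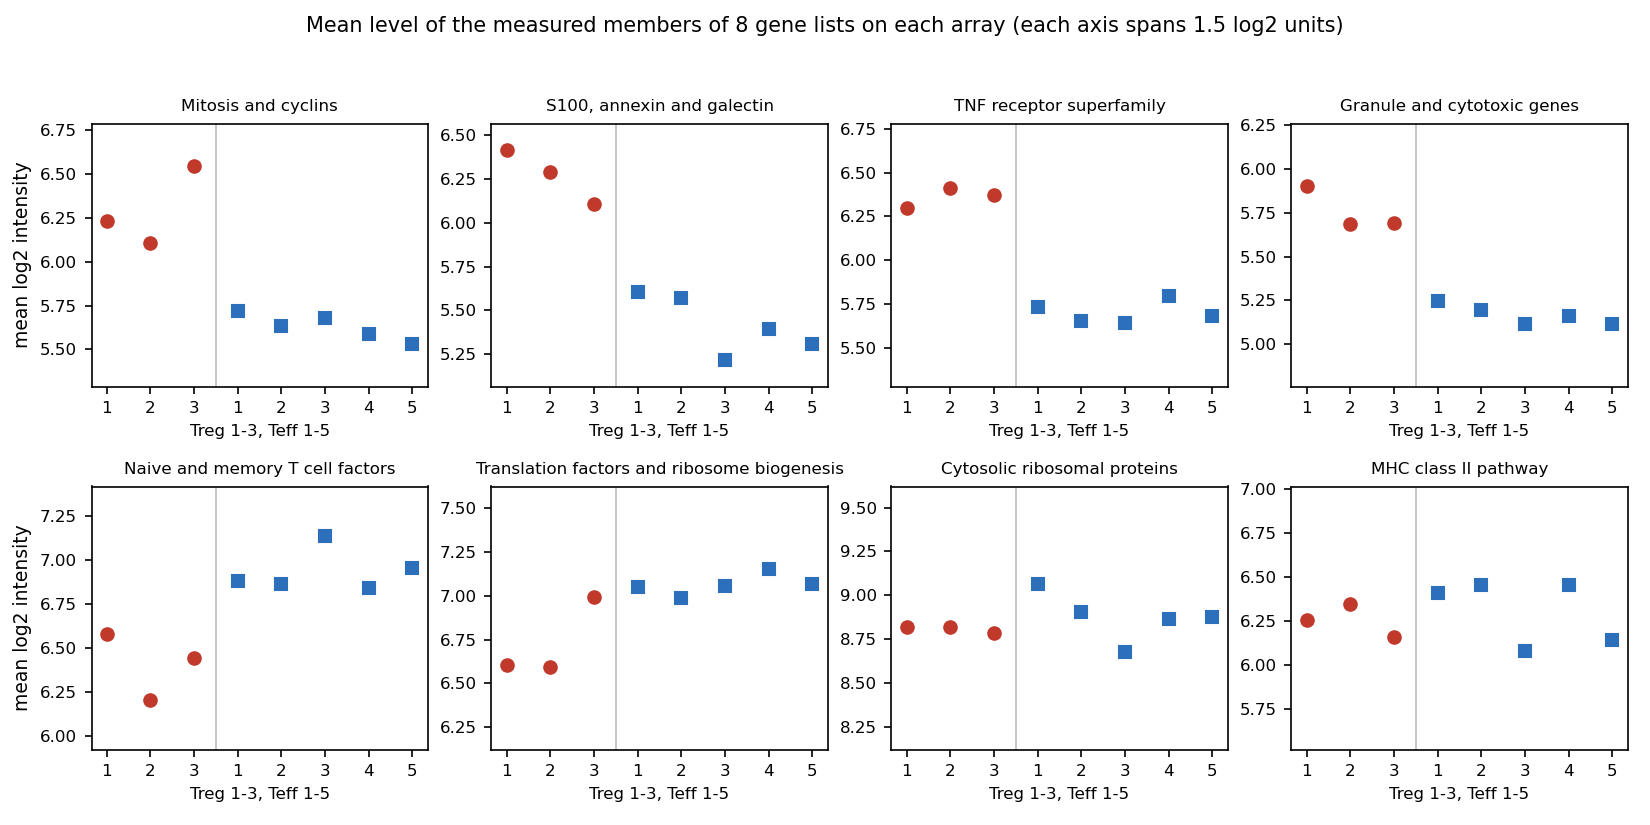
Mean log2 intensity over the measured members of 8 gene lists on each array, with the 3 Treg arrays as circles on the left and the 5 Teff arrays as squares on the right; every axis spans 1.5 log2 units. Treg arrays lie above all Teff arrays for the first 4 lists and below them for naive and memory factors, while translation factors (where Treg 3, at 6.99, meets Teff 2, at 6.99), ribosomal proteins and MHC class II genes overlap.

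Of 21 glycolysis genes 3 rose and 1 fell. Tpi1, a glycolytic isomerase, had 7.47, 7.40 and 7.61 on the Treg arrays, against 6.83, 6.55, 6.36, 6.66 and 6.59 on the Teff arrays (difference 0.90, adjusted p = 0.00141). The glucose transporter Slc2a3 rose by 0.77 (other probe set 0.08), and Pdk1, a kinase that holds pyruvate back from the mitochondrion, fell by 0.72. Of 44 respiratory chain genes 5 rose and 0 fell, Sdhb by 1.07 and Cox6a1 by 0.89 among them; the count was 9 without Teff 1, 3 without Treg 1 and 2 without Teff 2, Teff 5 or Treg 2. Of 27 redox genes 4 rose and 2 fell. The glutaredoxin Glrx had 8.87, 8.65 and 8.28 on the Treg arrays, against 7.49, 7.48, 7.26, 7.34 and 7.36 on the Teff arrays (difference 1.21, adjusted p = 0.000594). Thioredoxin (Txn1) rose by 0.81, the peroxiredoxin Prdx4 by 1.00 and the lipid peroxidase Gpx4 by 0.75. Prdx3, a mitochondrial peroxiredoxin, fell by 0.39 and Nfe2l2, a transcription factor of the oxidative stress response, by 0.89. The falls numbered 1 without Teff 1, 2, 3 or 4 or Treg 3, and 0 without Teff 5 or Treg 2. With the actin ratio as a covariate 0 respiratory chain and 0 redox genes passed, and 1 glycolysis gene rose. In the joint fit with the anti-ICOS arrays 0 respiratory chain genes passed. There 3 redox genes rose and 0 fell, and 1 glycolysis gene rose and 1 fell.

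Some genes of the secretory pathway and of the interferon response rose. Of 27 genes of the endoplasmic reticulum, 4 rose and 0 fell. Xbp1, a transcription factor of the unfolded protein response, had 7.36, 5.96 and 6.24 on the Treg arrays, against 5.45, 5.14, 5.25, 5.21 and 5.20 on the Teff arrays. Treg 1 stood far above the other Treg arrays (difference 1.27, SE 0.26, adjusted p = 0.0164). The chaperone partner Dnajb11 rose by 1.05, Manf by 0.94 and the stress sensor Atf6 by 0.52. Of 30 interferon response genes, 8 rose and 0 fell (median difference 0.27). Gbp3, a guanylate-binding protein of cell defence, had 8.86, 8.45 and 8.71 on the Treg arrays, against 6.12, 6.43, 6.77, 6.65 and 6.51 on the Teff arrays (difference 2.18, SE 0.15, adjusted p = 3.33e-05). Isg20 rose by 1.23, Igtp by 0.90, Ifi35 by 0.89, the immunoproteasome subunit Psmb9 by 0.79 and Iigp1 by 0.63. With the actin ratio as a covariate 0 of the endoplasmic reticulum genes and 1 of the interferon genes rose, and 4 interferon genes rose in the joint fit with the anti-ICOS arrays. With the IgG Treg array of the later set added 2 endoplasmic reticulum genes rose.

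Signal feedback and survival genes split. Of 17 genes of MAPK and Ras feedback, 1 rose and 3 fell. Dusp6, a phosphatase that switches off ERK, had 4.96, 4.07 and 4.47 on the Treg arrays, against 6.23, 6.03, 6.68, 6.09 and 6.18 on the Teff arrays (difference -1.75, SE 0.20, adjusted p = 0.000869; other probe set -0.13). The phosphatase Dusp2 fell by 0.68 and the G protein regulator Rgs2 by 0.81, while the stress gene Gadd45g rose by 1.03. Of 24 genes of the T cell receptor pathway, 1 rose and 3 fell, where 4.5% of all genes rose and 3.22% fell. The count of falls was 1 without Treg 2. The kinase Txk fell by 0.89 (adjusted p = 0.000725; other probe set -0.11) and Cd5, a receptor that dampens the T cell receptor, rose by 0.76 (adjusted p = 0.016). Smad1, which carries signals of bone morphogenetic proteins, had 5.70 ± 0.38 in Treg cells and 7.65 ± 0.31 in Teff cells (SD, n = 3 and 5; difference -1.94, adjusted p = 0.000489; other probe set -2.21). Of 26 genes of cell death 3 rose and 3 fell. The inflammatory caspases Casp1 and Casp4 rose by 0.76 and 0.76, and Bcl2l11, the death activator Bim, fell by 0.70 (adjusted p = 0.00801), with other probe sets at 0.04 and 0.13.

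Several of the largest differences lay outside the lists. Tdrp had 5.24, 5.87 and 6.05 on the Treg arrays, against 8.22, 8.03, 8.53, 8.19 and 8.38 on the Teff arrays (difference -2.55, adjusted p = 3.34e-05; other probe set 0.02). The membrane protein Itm2a had 6.36, 5.54 and 5.99 on the Treg arrays, against 8.24, 7.95, 7.99, 8.26 and 8.17 on the Teff arrays (difference -2.16, adjusted p = 6.2e-05). Nsg2 had 5.17 ± 0.33 in Treg cells and 7.13 ± 0.18 in Teff cells (SD, n = 3 and 5; difference -1.95). Ugcg, the enzyme that makes glucosylceramide, fell by 1.61 (other probe set -0.58). On the higher side, AW112010 had 9.13, 8.49 and 8.40 on the Treg arrays, against 7.03, 6.89, 6.79, 6.66 and 6.31 on the Teff arrays (difference 1.94, adjusted p = 0.000413). Mdfic rose by 1.89. Laptm4b and Rin2 lie outside the naming rule and were chosen after their values were seen. They rose by 1.61 (SE 0.08, adjusted p = 4.06e-06) and 1.43. The variable segment of the T cell receptor gamma chain, Trgv1, had 8.14, 7.58 and 8.32 on the Treg arrays, against 5.90, 6.21, 5.77, 5.86 and 5.78 on the Teff arrays (difference 2.11, SE 0.17, adjusted p = 7.4e-05).

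Markers of other cells were compared for the whole of each list. The summed linear intensity of 17 B cell and plasma cell markers was 995 to 1188 on the Treg arrays and 740 to 857 on the Teff arrays, without overlap. Of the 17, 5 had a mean above the highest blank, and 3 rose, against 0 with the actin ratio as a covariate. Ighm, the heavy chain of IgM, rose by 0.74 (adjusted p = 0.0126), and its other 15 probe sets differed by -0.05 to 1.48. The kinase Blk rose by 0.58 (other probe set 0.02). The sum of 7 erythroid and platelet markers was 2444 to 3022 on the Treg arrays and 604 to 2391 on the Teff arrays, without overlap, and 0 of the 7 passed. The sum of 8 CD8, gamma delta and NK markers was 243 to 283 on the Treg arrays and 304 to 370 on the Teff arrays, with 1 fall, Eomes. That of 18 stromal and endothelial markers was 1249 to 1592 on the Treg arrays and 1022 to 1236 on the Teff arrays. Thy1, which T cells also express, rose by 0.65 and Fn1 by 0.40; 0 of the 18 rose without Teff 2, Teff 3, Teff 5 or Treg 2. The sums of the MHC class II, macrophage, granulocyte, exocrine and islet lists overlapped between the groups, and 0 of their measured members passed. The part of other cells in the results was not tested.

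The same kind of contrast was available in lymph nodes of BDC2.5 NOD mice aged 4 weeks, as CD4+CD25+ cells (8 arrays) against CD4+CD25- cells (6 arrays) of mesenteric and peripheral nodes. The difference between the pancreatic and the node contrast passed for 258 of 12422 probe sets (2.08%), 152 positive (1.22%) and 106 negative (0.853%), in a joint fit of 22 arrays normalised together. Tissue, treatment and array set coincide here and cannot be told apart, and the node gate did not use CD69. In that fit Il10 differed by 2.30 in pancreas and by 0.40 in nodes, a difference of 1.90 (SE 0.26, adjusted p = 0.000653). Prdm1 gave 1.81 in pancreas and 0.38 in nodes (adjusted p = 0.000653). Il1r2 gave 2.94 and 0.62 (adjusted p = 0.00255), Itgae 3.26 and 1.20 (adjusted p = 0.00624), and Gbp3 2.29 and 0.57 (adjusted p = 0.0107). These genes had positive differences in both sites, the larger ones in the pancreas.

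Other genes had differences of opposite sign in the 2 sites. The adjusted p given for them tests the difference between sites, not the sign within either site. Fam3c, a secreted protein, gave 1.36 in pancreas and -0.84 in nodes (adjusted p = 0.000653), and Top2a 1.40 and -0.58 (adjusted p = 0.00354). Cd28 gave -1.45 and 0.36 (adjusted p = 0.0228), the transcription factor Klf3 -0.93 and 1.87 (adjusted p = 0.00578), and Lmo4 -0.73 and 1.09 (adjusted p = 0.00255). Lmo4 was chosen after its values were seen. Il6ra gave -0.62 and 1.04 (adjusted p = 0.00253). A larger positive difference in nodes was measured for Trgv1 (2.17 in pancreas and 4.21 in nodes, adjusted p = 1.04e-06), for Tmem176b (0.58 and 3.29) and for Ccr6 (0.89 and 2.52, adjusted p = 0.00255). Klrg1, Socs2, Gzmb, Tnfrsf4 and Ctla4 did not pass this test. Socs2, for one, gave 3.91 and 3.80, and Ctla4 2.48 and 2.21. The number of probe sets past the test was 166 with mesenteric nodes alone, 52 with peripheral nodes alone and 160 without Teff 5; the negative ones numbered 60 without Treg 2.

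**Figure D5:**
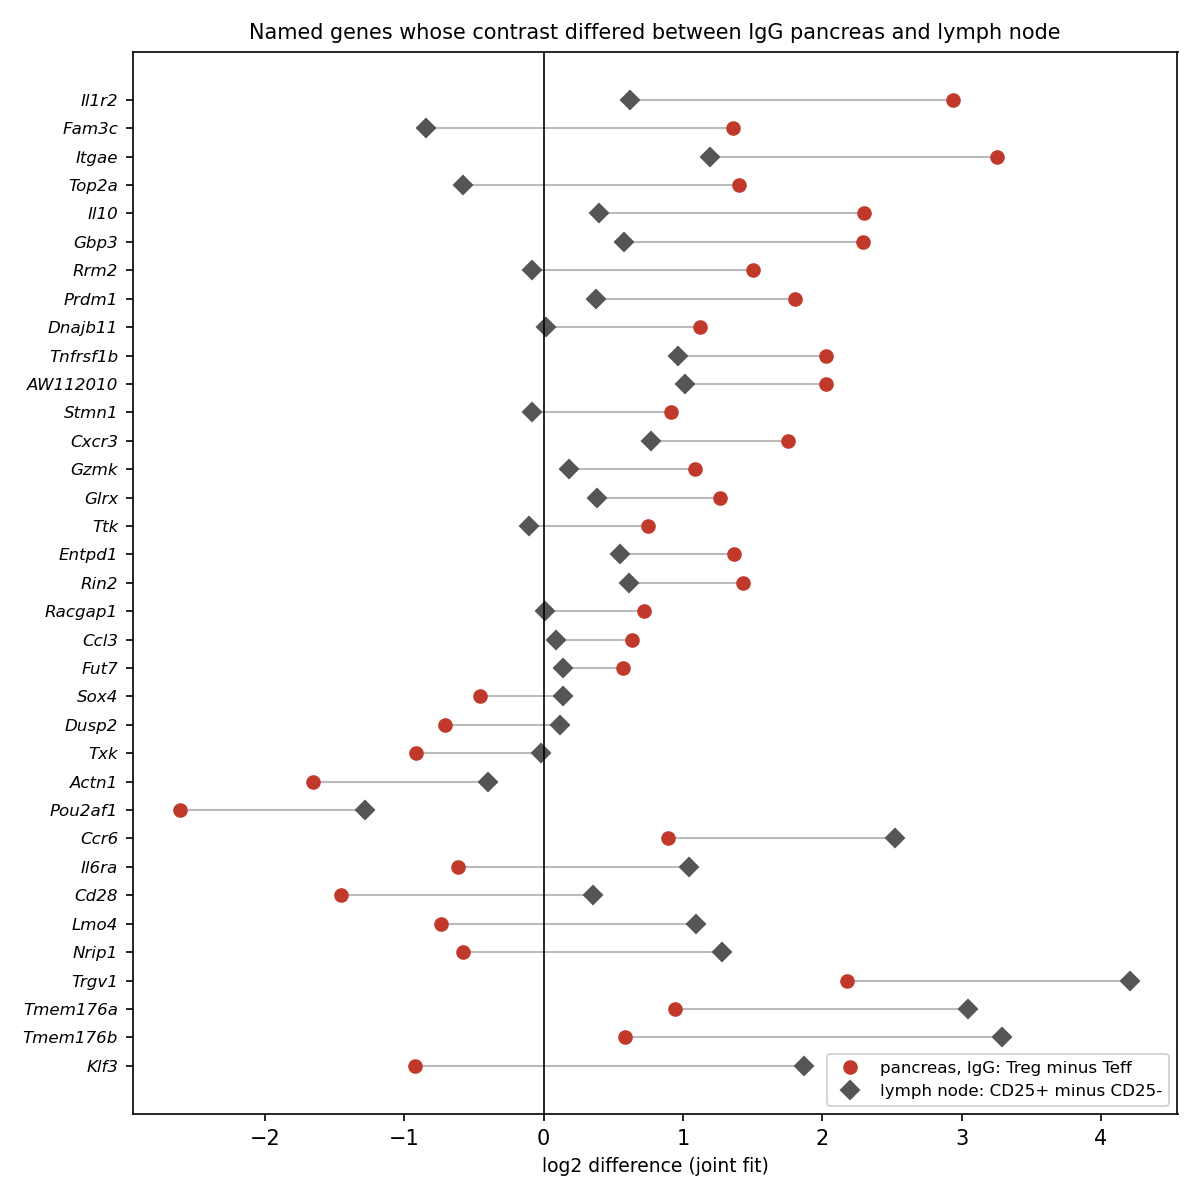
Log2 differences of the named genes whose contrast passed the test of the difference between sites, from the joint fit: circles are Treg minus Teff in the IgG pancreas, diamonds CD25+ minus CD25- in lymph nodes. Genes run from the largest positive difference between sites at the top (Il1r2) to the largest negative one at the bottom (Klf3).

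Mice given the antibody to ICOS were the other pancreatic comparison, with 3 Treg (CD4+CD25+) and 3 Teff (CD4+CD25-) arrays at 26 days. Treatment coincides here with the set of records, their processing notes and the gate, which cannot be told apart, while the array numbers of both treatments lie in the same 3 runs. By limma, 0 of 12422 probe sets passed the test of the difference between the 2 contrasts (0%), and 338 had an unadjusted p under 0.05. With the run of array numbers as a block, a fit chosen after seeing the data, 0 passed and 323 had an unadjusted p under 0.05. For Tnfrsf4 the joint fit gave 3.05 under IgG and 1.44 under anti-ICOS (adjusted p of the difference 1). For Socs2 the values were 3.90 and 2.41 (adjusted p = 1), for Klrg1 3.97 and 2.58, and for Lgals1 3.16 and 1.35. Ifng gave 0.98 and 1.82, and Pou2af1 -2.79 and -1.90. A difference that misses the threshold does not show that the contrasts were alike.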

How the data were processed

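RNA of sorted T cells was hybridised to Affymetrix MG-U74Av2 arrays, 1 array per sample. The authors deposited 1 linear intensity per probe set; per the submitters' processing notes other arrays of the series were summarised with RMA, and the method used for the 8 IgG arrays is not given in the sources used. Of 12488 probe sets, 66 controls were left out and 12422 tested. Values were taken as log2 and, since the array medians spanned 0.085 log2 units, not normalised again. Joint fits with other arrays used quantile normalisation. Tests were run with limma 3.58.1 in R 4.3.3, without covariates. P-values were adjusted by the Benjamini-Hochberg method over all probe sets at a threshold of 0.05. The fits were tested on simulated data with independent noise, without runs and without a group difference in actin ratio. That trial therefore does not cover such effects. The number of arrays limits the precision. Only probe sets with 1 gene symbol were named, and where a gene had several, that with the highest mean over the 8 arrays stood for it.

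Named are the 25 largest rises and falls without overlap, up to 10 called members of each list, fixed anchor genes, the 5 largest positive and negative differences between sites, and high markers, with the exceptions stated. The gene lists and the members were chosen with earlier results of these data known. Replicate numbers link no samples of the IgG comparison. For the anti-ICOS pairs of equal number the deviations from the group means correlated at 0.589, 0.283 and 0.237. For the node pairs the lowest correlation was 0.015. The main fits paired no samples, and a block for equal replicate numbers was an alternative fit for both sets. Promoters are RefSeq sequences on GRCm38.p6 (6576 of 8251 genes matched).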

Additional observations from a re-analysis of the deposited data

Results flagged for a closer look

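For 5 of 151 named genes (3.31%) 1 Teff array stood far from the other Teff arrays, where chance gives about 1 in 20 and 6.11% of all genes do so. Icos on Teff 2 was the highest Teff value at 4.41, with the next at 4.16. Cish on Teff 3 was lowest at 6.21, with the next at 6.53. Fbl on Teff 4 was highest at 9.13, with the next at 8.73. Cd5 on Teff 2 was lowest at 7.91, with the next at 8.36. Trgv1 on Teff 2 was highest at 6.21, with the next at 5.90.

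For 35 named genes the contrast in the IgG pancreas differed from that in lymph nodes by the test of the difference itself. The value given is the pancreatic difference minus the node difference, on the log2 scale. Among surface receptors, adhesion molecules and secreted proteins it was 2.32 for Il1r2, 2.20 for Fam3c, 2.06 for Itgae, 1.90 for Il10, 1.06 for Tnfrsf1b, 0.98 for Cxcr3, 0.90 for Gzmk, 0.81 for Entpd1, 0.55 for Ccl3 and 0.43 for Fut7. It was negative for Trgv1 (-2.03), Cd28 (-1.81), Il6ra (-1.66) and Ccr6 (-1.63). Among genes of division it was 1.98 for Top2a, 1.58 for Rrm2, 1.00 for Stmn1, 0.85 for Ttk and 0.71 for Racgap1. Among transcription factors it was 1.43 for Prdm1, against -2.80 for Klf3, -1.86 for Nrip1, -1.83 for Lmo4, -1.33 for Pou2af1 and -0.60 for Sox4. The remaining positive values were 1.72 for Gbp3, 1.10 for Dnajb11, 1.02 for AW112010, 0.88 for Glrx and 0.81 for Rin2. The remaining negative values were -2.71 for Tmem176b, -2.10 for Tmem176a, -1.26 for Actn1, -0.90 for Txk and -0.83 for Dusp2.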

How the results depend on the processing

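In the comparison of IgG Treg with Teff cells none of the 141 named genes that passed the test changed direction under the alternatives run. The alternatives used the same arrays or most of them, so this describes the called genes and is no independent check. The count of 831 probe sets (488 higher, 343 lower) was 86 (75 and 11) with the actin ratio as a covariate and 318 (203 and 115) in the joint fit with the anti-ICOS arrays; the cause was not tested. Leaving out 1 array gave 450 to 1000 in all, 289 to 502 higher and 141 to 541 lower; the lowest total came without Teff 5, and without Treg 2 it was 471; the lower count was 541 without Treg 3. Quantile normalisation (925), a trended and robust fit (862), run as a block (815), dim probe sets left out (732 of 6413) and the added IgG Treg array (929) stayed within 1.5 times. Of 141 named genes that passed, 43 passed with the actin ratio, 88 in the joint fit, 124 with the added array, and 128 to 137 without 1 array. The difference in actin ratio was 0.704 to 1.46 and that in Gapdh ratio 0.169 to 0.459 without 1 array. The node difference (258 probe sets, 152 positive and 106 negative) numbered 166 (99 and 67) with mesenteric nodes alone, 52 (36 and 16) with peripheral nodes alone, 232 with the replicate block and 160 to 240 (97 to 150 and 60 to 106) without 1 array. The anti-ICOS difference gave 0 in all 13 settings by limma, run as a block among them,, with 230 to 580 probe sets at an unadjusted p under 0.05. With the replicate block, which pairs the anti-ICOS samples, it was 0 as well, with 477 unadjusted. The IgG arrays carry no replicate numbers in the labels, so no replicate block could be fitted for the IgG comparison itself. Signal over background limits 113 of the 637 called genes, whose group means both lay under the highest blank (5.59). Of all 8251 genes, 4070 had both group means under it.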
